A study of Homo sapiens with 18 samples.

Results

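The spliceosomal RNAs U1, U2, U4, U5 and U6 and the histone-processing RNA U7 were followed in IMR90 cells (an established human lung fibroblast line, labelled wildtype) after treatment with Nutlin or 5-fluorouracil (5-FU). Members were all rows of the deposited repeat tables whose repeat name is U1, U2, U4, U5, U6 or U7. This gave 1572 of 2404193 repeat copies in the 5-FU table and 1113 of 1996647 in the Nutlin table, of which 1013 were in both. U6 had 907 copies in the 5-FU table, U2 had 280, U1 had 130, U4 had 99, U7 had 95 and U5 had 61. No copy was made a member by its values, whereas the copies named below were picked by their counts or calls. There were 9 groups of 2 total RNA samples (18 in all). Nutlin was given at 5 µM for 6 h and 5-FU at 375 µM for 6, 12 or 24 h, and each drug and time had its own DMSO group with an equal volume of vehicle. Untreated cells got fresh medium 12 h before extraction. The labels do not say whether replicates came from separate cultures, so p-values measure the spread between these samples, which may be technical.

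Spliceosomal U RNAs are short, stable, non-coding RNAs that sit in protein particles and carry out the removal of introns. U1 pairs with the start of the intron and U2 with its branch site, whereas U4, U5 and U6 arrive together, and U6 takes over the splice site once it has separated from U4. U5 holds the exon ends. U7 belongs to another particle, which cuts the 3′ ends of histone messages. U6 is made by RNA polymerase III and the others by RNA polymerase II. The genome carries a few functional genes of each and many retroposed copies, so a repeat name covers both kinds. Nutlin keeps MDM2 from binding p53. 5-FU, a pyrimidine analogue, interferes with the making of both DNA and RNA.

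The sequences decide which copies a short read can be told apart from, so they are given for main genes of U1, U2, U4 and U7. All are transcripts of GENCODE v29 on GRCh38, taken by gene name. The deposited positions are on hg19, which is not the build of this annotation, and no coordinate was moved from one to the other. For U1 the capitals mark the stretch ACTTACCTG (bases 3 to 11), which pairs with the start of introns. RNU1-2, RNU1-3 and RNU1-4 had 0 differences from RNU1-1, and 8 transcripts in all, on chromosomes 1 and 14 and an unplaced scaffold, had this sequence.
RNU1-1: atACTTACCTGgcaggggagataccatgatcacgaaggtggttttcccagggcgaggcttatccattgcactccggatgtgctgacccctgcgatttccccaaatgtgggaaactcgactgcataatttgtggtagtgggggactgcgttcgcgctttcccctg

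For U2, the capitals in the next pair mark the bases that differ between RNU2-1 on chromosome 17 and RNU2-2P on chromosome 11. There were 8 such positions of 191, which is an identity of 95.8%, and 4 of them were adjacent (G108A, C109A, A110T and G111A, counted from the first base of RNU2-1). RNU2-1 shared its sequence with 10 other transcripts and RNU2-2P with 0.
RNU2-1: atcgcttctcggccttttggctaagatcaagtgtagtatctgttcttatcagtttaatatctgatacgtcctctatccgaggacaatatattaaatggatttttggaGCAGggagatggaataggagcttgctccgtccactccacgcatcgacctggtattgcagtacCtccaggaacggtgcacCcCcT
RNU2-2P: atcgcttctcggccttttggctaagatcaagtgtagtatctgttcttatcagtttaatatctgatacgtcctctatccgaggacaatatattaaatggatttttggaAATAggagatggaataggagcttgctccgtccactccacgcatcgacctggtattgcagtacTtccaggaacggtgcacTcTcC

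The U4 genes come in a close pair whose members differ, as the capitals show, at 4 of 141 positions (97.2% identity). Each of these sequences belonged to a single transcript.
RNU4-2: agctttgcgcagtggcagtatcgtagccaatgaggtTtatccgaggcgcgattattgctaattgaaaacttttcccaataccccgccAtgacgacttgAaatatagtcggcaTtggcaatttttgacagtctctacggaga
RNU4-1: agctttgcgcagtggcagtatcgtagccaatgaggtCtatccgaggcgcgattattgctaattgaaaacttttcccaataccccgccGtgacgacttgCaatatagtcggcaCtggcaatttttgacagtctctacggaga

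For U7 the capitals mark AATTTGTCT (bases 21 to 29), where the ring of Sm and Sm-like proteins binds, and this sequence belonged to 1 transcript.
RNU7-1: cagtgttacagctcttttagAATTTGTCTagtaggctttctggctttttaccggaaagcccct

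Libraries of the 5-FU table held 2412334 to 6290320 counts over all repeats, and the U RNAs took 3.01% to 5.97% of them. Both DMSO 12 h libraries had the smallest totals (2412334 and 2540089) and the largest TMM scaling factors (1.318 and 1.232, against 0.812 to 1.105 elsewhere), a factor that sets library sizes to a common level. In the Nutlin table the totals were 9109885 to 11880265 and the U RNAs took 1.33% to 1.48%. There, 60.4% to 66.3% of each library lay in 1 copy of 7SL RNA, and without it the U share was 3.75% to 4.29%. The untreated library of the Nutlin table and untreated replicate 1 of the 5-FU table had 143492 and 140926 U RNA counts, while their totals differed 2.78-fold. Levels below are CPM, the counts scaled to 1000000 counts of the TMM-adjusted library, and were not compared across tables. Both tables list repeats alone, so fibroblast markers and p53 targets were not checked, and in bulk RNA fewer expressing cells and less RNA per cell cannot be told apart.

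Most counts of U1, U2 and U4 were placed at full-length copies at very few positions, whereas those of U6 and U7 were spread out. For U1, whose sequence several genes share, this need not be where the RNA was made. In the 5-FU table the most counted copy held 96.3% of U1, 96.5% of U2, 74.5% of U4, 37.2% of U5, 18.2% of U6 and 17.2% of U7. The 3 most counted copies held 99.5% of U1, 99.7% of U2, 99.6% of U4, 89.0% of U5, 51.4% of U6 and 44.7% of U7. Of the 907 U6 copies, 565 had a count and 137 reached 10 counts over all libraries. The median of the remaining copies was 0 counts for U1, 1 for U6, 2 for U4 and U5, 3 for U2 and 4 for U7. Levels can be set side by side only per length. How well RNAs of each length were recovered was not measured, so the order below is one of counts, not of RNA amounts in cells. In untreated cells U1 had 13724 CPM per 100 nt of consensus (13615 to 13832), U2 6759 (6583 to 6934), U4 682 (638 to 726), U5 329 (312 to 347), U6 176 (169 to 183) and U7 28.2 (24.1 to 32.3). These ranges did not overlap. The order U1, U2, U4, U5, U6, U7 also held for the group means of the other groups of that table. The libraries of U1 and U2 overlapped in DMSO 6 h, DMSO 12 h and 5-FU 24 h.

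Within a name, counts could sit at different copies in different libraries. The U1 copy at chr1:16840617-16840780 had 56602 to 158919 counts in 13 of the 14 libraries of the 5-FU table and 16 counts in DMSO 12 h replicate 1. In that library the copy at chr1:16993280-16993443 had 43359 counts, against 0 to 22 in the others. The most counted U1 copy thus held 99.2% to 99.6% of the U1 counts of every library, at 1 of 2 positions. The starts of these copies lie 152663 bases apart, the spacing of RNU1-1 and RNU1-3 and of no other U1 gene pair in GENCODE v29. In the Nutlin table the first copy had 73279 to 102494 counts in 4 libraries and 126 in Nutlin replicate 2. There, the copy at chr1:149224058-149224221 had 81603, against 23 to 88 in the others. So 1 library in each table carried its U1 counts at another copy. RNU1-1 and RNU1-3 are identical (see the U1 sequence above), and how the authors placed reads that fit several copies is not given in the sources used here, so a move of counts between copies and a change at a copy cannot be told apart.

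U2 and U6 shifted in both DMSO 12 h libraries. The U2 copy at chr11:62609096-62609281 held 69.4% to 99.4% of U2 across the 5-FU table. The U2 copy at chr10:103124607-103124792 had 12881 and 15274 counts in DMSO 12 h. It had 1910 in 5-FU 24 h replicate 2 and 59 to 316 in the other 11 libraries. The 2 DMSO 12 h libraries were thus the only ones with a large share at that copy. The U6 copy at chr14:32672370-32672475 had 0 and 7 counts in DMSO 12 h and 63 to 384 elsewhere, so it was nearly empty in those libraries alone. Another full-length U6 copy, at chr19:1021521-1021627, varied within groups instead, with 241 and 76 counts in DMSO 6 h, 234 and 73 in 5-FU 6 h and 95 and 226 in 5-FU 12 h. In 5-FU 24 h it had 354 and 379.

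**Figure D1:**
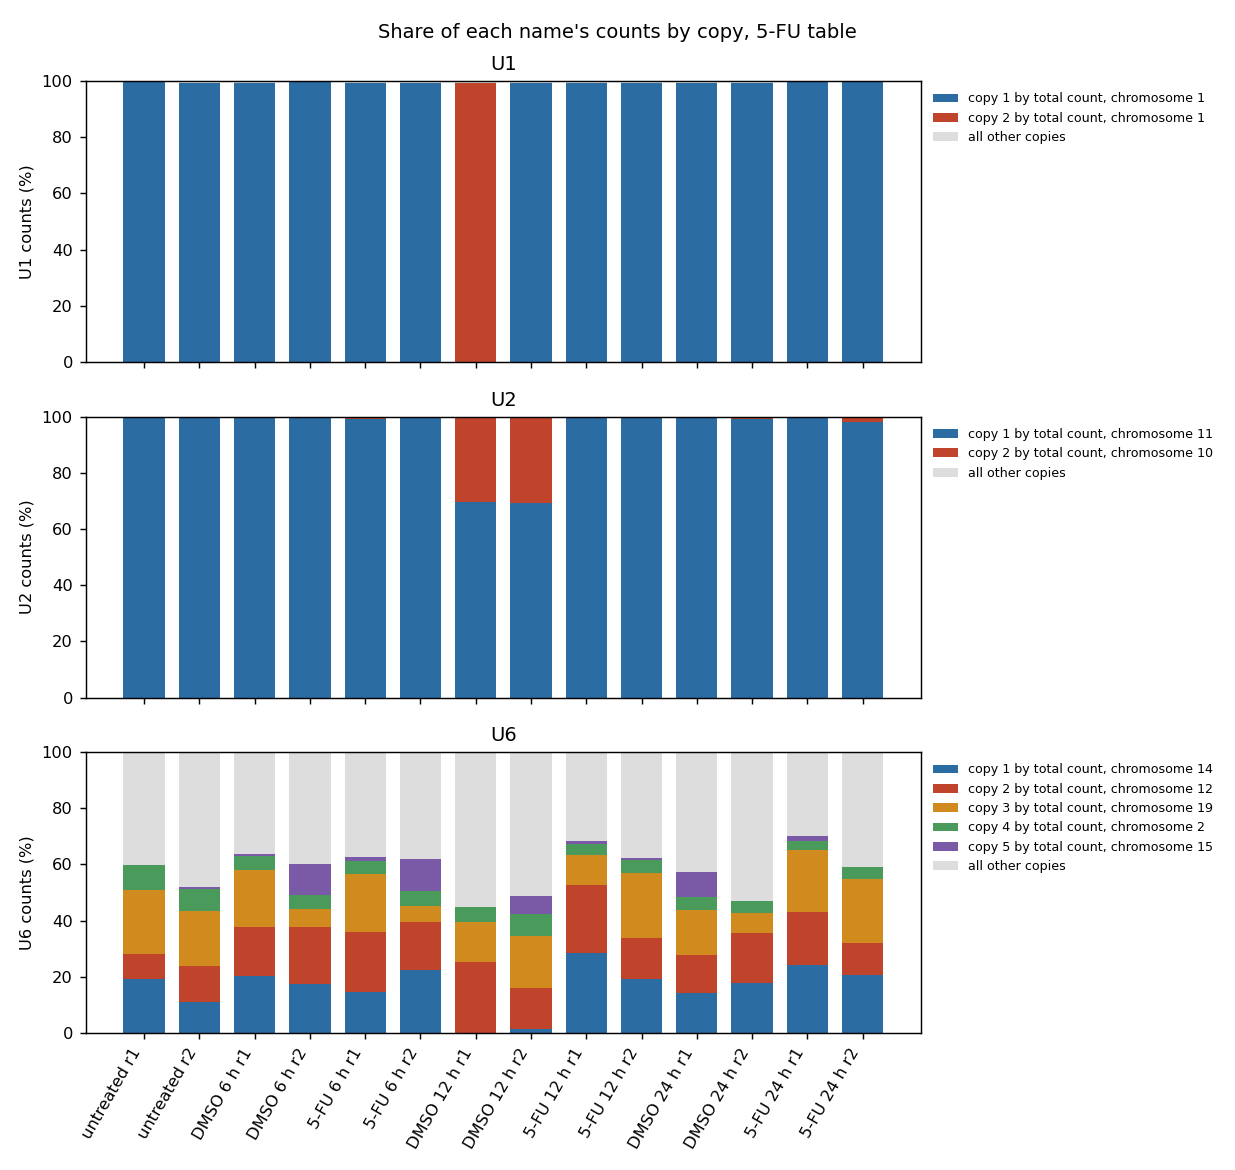
Share (%) of the U1, U2 and U6 counts of each library of the 5-FU table that lay at the most counted copies, one bar per library (r1 and r2 are replicates). U1 sat at its second copy in DMSO 12 h replicate 1 alone, the U2 copy on chromosome 10 took a large share only in the 2 DMSO 12 h libraries, and the U6 copy on chromosome 14 was at 0 and 7 counts there.

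Summed over copies, the spliceosomal RNAs were higher after 12 h of 5-FU, and U7 did not pass the test. The U1 level was 13736 and 18190 CPM in DMSO 12 h and 39611 and 38129 in 5-FU 12 h. The U2 level was 13469 and 16085 CPM against 25949 and 24898. The U4 level was 1028 and 1323 CPM against 2390 and 2087. For each of these, both 5-FU libraries lay above both DMSO libraries. U5 stood at 525 and 563 CPM in DMSO 12 h and 909 and 831 in 5-FU 12 h, and U6 at 157 and 169 against 261 and 278, again without overlap. The share of all names that separate in this way was not counted, here or below. By edgeR's quasi-likelihood test, with p adjusted over 1078 repeat names, the log2 fold change was 1.28 for U1 (SE 0.24, adjusted p = 0.00106), 0.78 for U2 (SE 0.14, adjusted p = 6.51e-04) and 0.93 for U4 (SE 0.20, adjusted p = 0.00297). U5 rose by 0.68 (SE 0.20, adjusted p = 0.0176) and U6 by 0.73 (SE 0.15, adjusted p = 0.00186). U7 had 12.3 and 14.7 CPM against 15.9 and 14.6, and its change was 0.18 (SE 0.25, adjusted p = 0.617).

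Hence 5 of the 6 names were called at 12 h, all higher, where 33.8% of all names were called and 28.5% were called higher. The median change of the 6 was 0.75, beside 0.17 over all names. These calls depended on the scaling: with library size alone, which lowers the median of all names by 0.57, 1 of the 6 was called (U1, 0.72, adjusted p = 0.00911) and the calls over all names turned from 307 higher and 57 lower to 61 higher and 436 lower. Under RLE scaling 4 of the 6 were called, and 185 names were higher and 200 lower. Against the DMSO libraries of 6 and 24 h in place of DMSO 12 h, edgeR gave U1 1.01, U2 0.91, U4 0.61 and U5 0.63, each with adjusted p under 0.05, but U6 0.18 (adjusted p = 0.264). Without its copy on chromosome 14, U6 was at 0.35 at 12 h (edgeR adjusted p = 0.0889), and U5 was not called without any 1 of the 4 libraries (0.61 to 0.74, adjusted p = 0.0509 to 0.102).

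**Figure D2:**
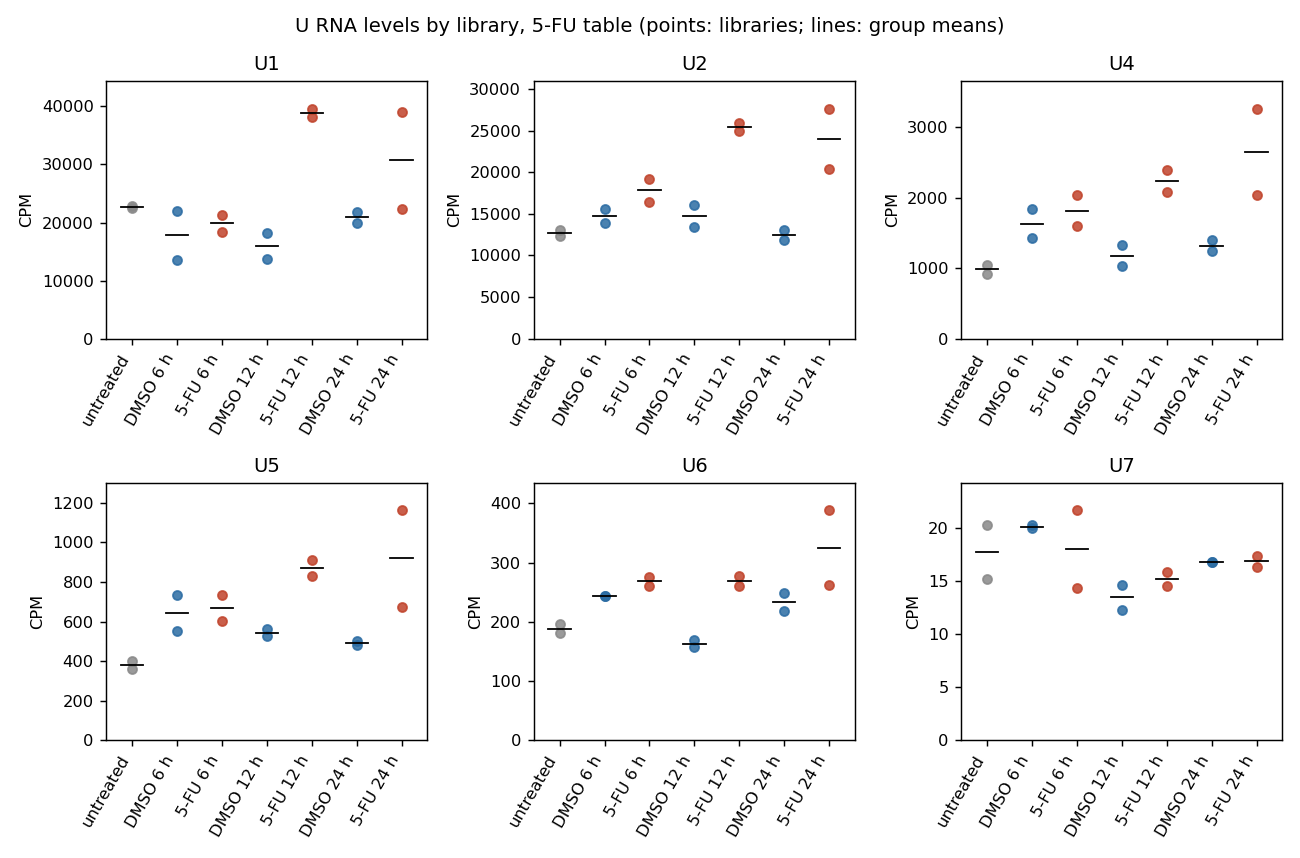
Level of each U RNA name, summed over copies, in the 14 libraries of the 5-FU table, in CPM (linear axes from 0). Points are libraries (grey untreated, blue DMSO, red 5-FU) and lines are group means. At 12 h both 5-FU points lie above both DMSO points for every name but U7 (share over all names not counted). At 24 h the 2 5-FU libraries lie far apart for every name but U7.

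At 24 h the U2, U4, U5 and U6 sums were called higher, and the 5-FU libraries differed more from each other than at 12 h. U2 had 13071 and 11858 CPM in DMSO 24 h and 27625 and 20419 in 5-FU 24 h. The change of U2 was 0.95 (SE 0.14, edgeR adjusted p = 6.01e-04). U4 had 1401 and 1240 CPM against 3264 and 2035, a change of 1.00 (SE 0.20, edgeR adjusted p = 0.00574). U5, which aligns the exons, had 503 and 482 CPM against 1162 and 676, a change of 0.90 (SE 0.20, edgeR adjusted p = 0.00933). U6 had 249 and 218 CPM against 388 and 262, a change of 0.47 (SE 0.14, edgeR adjusted p = 0.0431), and was not called with the replicate block (adjusted p = 0.0524). U1 had 21839 and 19953 CPM against 39059 and 22392, so its groups did not overlap, yet its change of 0.56 (SE 0.24) was not called (edgeR adjusted p = 0.152). Replicate 2 was the lower 5-FU library for all 5, and without it U1 was at 0.90 (edgeR adjusted p = 0.00156), the remaining library being assumed to vary like the other groups. U7 had 16.8 and 16.8 CPM against 16.4 and 17.4, a change of 0.01 (SE 0.22, edgeR adjusted p = 0.985).

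In all, 4 of the 6 names were called at 24 h, where 12.1% of all names were called (10.9% higher). Over all names RLE size factors turned 117 higher and 13 lower into 47 higher and 33 lower, and left 2 of the 6 called. A fit on the 24 h groups alone called 0 of the 6. For this fit and the next ones the share over all names is not given here, so these counts describe the members alone. Without DMSO 24 h replicate 2 edgeR called 1 (U2), without DMSO 24 h replicate 1 it called 2 (U2 and U4), and U6 was also not called without 5-FU 24 h replicate 1 (0.17, adjusted p = 0.201).

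At 6 h no U name was called. U1 had 13607 and 21986 CPM in DMSO 6 h and 18402 and 21316 in 5-FU 6 h, which overlapped. U2 came nearest, with 15594 and 13853 CPM against 16406 and 19205, a change of 0.27 (SE 0.14, edgeR adjusted p = 0.463). U4 had 1838 and 1429 CPM against 1592 and 2040, and U5 734 and 551 against 605 and 732. The 6 changes lay between -0.15 (U7) and 0.27. Of all 1078 names edgeR called 0 (0% of names) at this time, with 126 at an unadjusted p under 0.05, none of them among the 6. DESeq2 called 0 of the 6 as well, and a fit on the 6 h groups alone called 1. Their shares over all names are not given here. The 24 h change minus the 6 h change was 0.67 for U2, 0.85 for U4 and 0.84 for U5 on the log2 scale. It passed the edgeR test for 0 of the 6 names, where 1.11% of names were called. By edgeR 3 of the 6 had an unadjusted p under 0.05, as had 119 of the 1078 names. DESeq2 called 3 of the 6, and its share over all names is not given here.

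**Figure D3:**
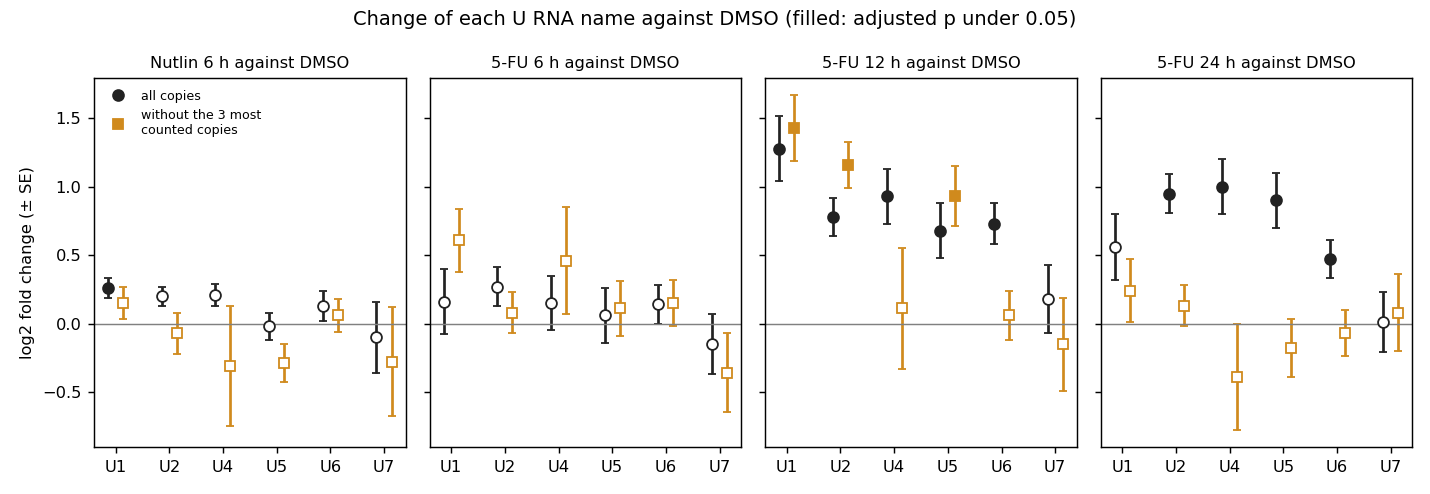
Log2 fold change against DMSO (± SE, from edgeR) for each name over all copies (circles) and without its 3 most counted copies (squares), in 4 comparisons. Filled symbols have an adjusted p under 0.05; at 12 h the U1, U2 and U5 squares are filled, and at 24 h none is.

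Averaged over the 3 times, 5 of the 6 names were called higher, where 36.7% of all names were called and 32.7% were called higher. Changes by edgeR were 0.67 for U1 (SE 0.14, adjusted p = 0.00195), 0.67 for U2 (SE 0.08, adjusted p = 3.59e-05) and 0.70 for U4 (SE 0.12, adjusted p = 4.52e-04). U5 was at 0.54 (SE 0.11, adjusted p = 0.00212) and U6 at 0.45 (SE 0.08, adjusted p = 9.49e-04). U7 was at 0.01, with an approximate 95% interval of -0.25 to 0.28 (1.96 SE). The interval of U7 lay below the changes of the other 5, but the difference between names was not tested. In a two-sided exact permutation test of log2 CPM within time points (216 arrangements), U2 and U6 both had p = 0.00926, the smallest this test can give, and 0.0370 after adjustment over 8 tests. The exact permutation p was 0.0185 for U4 (adjusted 0.0494), 0.0278 for U5 (adjusted 0.0556), 0.0556 for U1 (adjusted 0.0889) and 1.00 for U7. So in the exact test U2, U4 and U6 were past the threshold. With library size alone 3 of the 6 were called (U1, U2 and U4), and the calls over all names went from 353 higher and 43 lower to 65 higher and 378 lower.

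Copies beyond the 3 most counted had few counts each, and their sum did not always follow the name. The U1 remainder had 236 and 239 counts in DMSO 12 h and 599 and 800 in 5-FU 12 h. In CPM this was 74.2 and 76.4 against 177 and 229, a change of 1.43 (SE 0.24, edgeR adjusted p = 4.42e-04). The U2 remainder rose by 1.16 (SE 0.17, edgeR adjusted p = 1.54e-04) and that of U5 by 0.93 (SE 0.22, edgeR adjusted p = 0.00472). These 3 of 6 remainders were called, where 33.8% of names were called in that fit. The U6 remainder was at 95.3 and 110 CPM in DMSO 12 h and 94.9 and 120 in 5-FU 12 h, which overlapped, and its change of 0.06 was not called (edgeR adjusted p = 0.802). At 24 h 0 of the 6 remainders were called by edgeR, where 11.7% of names were called. An unadjusted p under 0.05 was reached by 0 of the 6 remainders and by 273 of the 1078 names in that fit. Their changes lay between -0.39 (U4) and 0.24 (U1). Over the 3 times 2 were called (U1 0.76 and U2 0.45), where 36.3% of names were. At 6 h and for Nutlin 0 were called (0% and 12.6% of names). In each, 1 of 6 had an unadjusted p under 0.05 by edgeR, as had 128 of 1078 names at 6 h and 263 of 1028 for Nutlin.

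The copies of the U4 pair on chromosome 12 differ in sequence, as shown above. Their starts, in the copies chr12:120729563-120729706 and chr12:120730897-120731040, are 1334 bases apart, as are RNU4-2 and RNU4-1 and no other U4 gene pair in GENCODE v29. The first copy had 2569 and 3324 counts in DMSO 12 h, 5957 and 5416 in 5-FU 12 h, 5405 and 5336 in DMSO 24 h and 10412 and 9538 in 5-FU 24 h. The second had 669 and 800, 2110 and 1844, 1890 and 1987, and 2917 and 3166 in the same order. Both had more counts with 5-FU at both times, but these counts are not scaled for depth. The DMSO 12 h libraries had totals of 2412334 and 2540089, against 3927593 and 4084675 in 5-FU 12 h. In the fit over single copies, adjusted over 63602 copies, edgeR called the second at 12 h (1.06, SE 0.24, adjusted p = 0.00752) and the first at 24 h (0.99, SE 0.25, adjusted p = 0.0252). It did not call the first at 12 h (0.57, SE 0.25, adjusted p = 0.151) or the second at 24 h (0.72, SE 0.24, adjusted p = 0.0916). The 12 h call was lost against DMSO 6 h and 24 h (0.58, edgeR adjusted p = 0.0531). The first copy held 79.3% and 80.6% of the pair in DMSO 12 h, and 72.0% to 78.1% in the other libraries of that table, so the split was highest in the same 2 libraries where U2 and U6 shifted. The share with 5-FU minus that with DMSO was 0.59 percentage points at 6 h, -5.75 at 12 h and 3.12 at 24 h, so its sign was not the same at each time. The mean of these (-0.68) did not pass a two-sided exact permutation test (p = 0.648), which does not test the single times.

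The U5 pair on chromosome 15 (chr15:65588389-65588505 and chr15:65597015-65597131) lies 8626 bases apart. At 24 h the first copy had 900 and 988 counts in DMSO and 1992 and 1729 with 5-FU, and the second 779 and 887 against 1598 and 1487. By edgeR they rose by 1.09 (SE 0.24, adjusted p = 0.00909) and 0.99 (SE 0.23, adjusted p = 0.0149). The first copy held 57.5% and 58.4% of the pair in untreated cells and 50.8% to 57.6% elsewhere, which overlapped. The share with 5-FU minus that with DMSO was -1.22 percentage points at 6 h, -4.95 at 12 h and 1.48 at 24 h. The mean of -1.56, to which 12 h gave the most, did not pass a two-sided exact permutation test (p = 0.185). The third U5 copy, at chr1:11968209-11968328, had 562 and 606 counts in DMSO 24 h and 850 and 724 in 5-FU 24 h. A shorter one, at chr1:45285575-45285669, which covers consensus bases 1 to 97, had 43 and 47 counts in DMSO 12 h and 129 and 160 in 5-FU 12 h, and rose by 1.31 (SE 0.29, edgeR adjusted p = 0.00738). Against DMSO 6 h and 24 h it was at 0.76 (edgeR adjusted p = 0.0317), and at 24 h its change was 0.02 (edgeR adjusted p = 0.987).

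**Figure D4:**
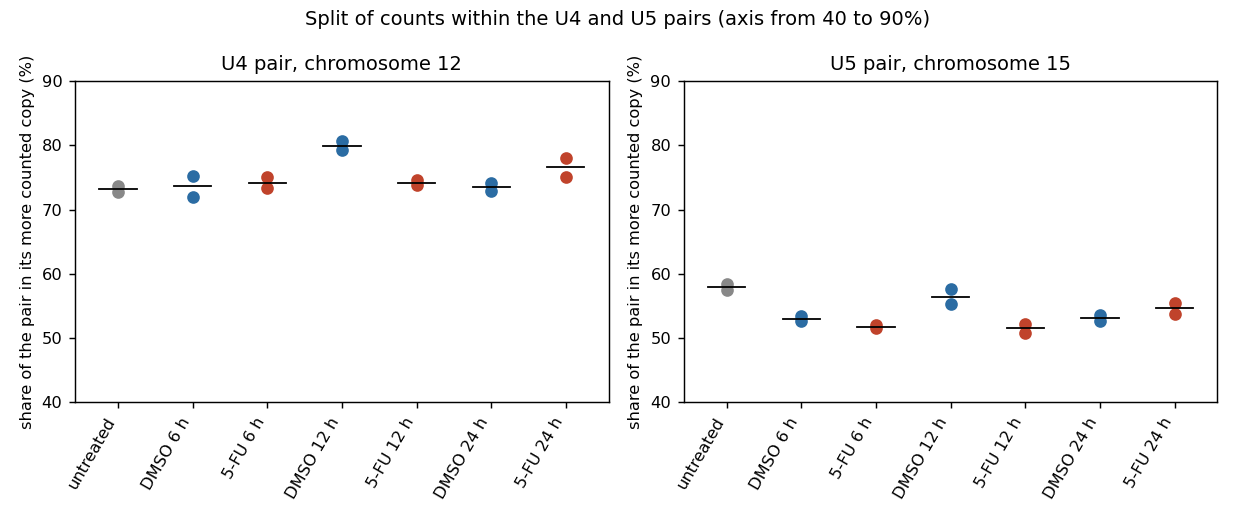
Share (%) of the counts of the U4 pair (chromosome 12) and the U5 pair (chromosome 15) that lay at the more counted copy, per library of the 5-FU table, with lines at group means and an axis from 40 to 90%. The U4 share is highest in DMSO 12 h (79.3% and 80.6%), and the U5 share has its highest group mean in untreated cells (57.5% and 58.4%), which overlap DMSO 12 h (57.6% and 55.3%).

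Of the 1572 copies, 64 passed the filter on low counts, namely 21 of U6, 17 of U1, 11 of U2, 8 of U5, 4 of U7 and 3 of U4. At 12 h 11 of these were called, 8 higher and 3 lower, where 9.68% of all copies were called. The 3 lower ones were the U1 copy at chr1:16993280-16993443, the U2 copy on chromosome 10 and a U6 copy on chromosome 8 (17 and 21 counts against 5 and 8). That U1 copy had 43359 and 10 counts against 0 and 0, so it passed the filter through DMSO libraries alone. The U6 copy on chromosome 8 was no longer called against DMSO 6 h and 24 h (-1.91 came to -0.89, edgeR adjusted p = 0.240). The U2 copy on chromosome 10 was at -6.29 (SE 0.54, edgeR adjusted p = 2.89e-07) and turned to 1.54 (adjusted p = 0.0101) against DMSO 6 h and 24 h. The U6 copy on chromosome 14 was the highest call, at 5.56 (SE 0.56, edgeR adjusted p = 2.16e-06), and came to 0.64 (adjusted p = 0.151) against DMSO 6 h and 24 h. So the last 2 values rested on the DMSO 12 h libraries. For the next counts, with a library left out, the share over all copies is not given here. The count of 11 came to 5 without DMSO 12 h replicate 1, 7 without replicate 2 and 6 without 5-FU 12 h replicate 2. The U2 copy on chromosome 11 was at 1.05 (SE 0.28, edgeR adjusted p = 0.0201) and stayed at 0.92 (adjusted p = 0.0109) against the other DMSO times.

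Among copies outside the leading 3, the U1 copy at chr1:149224058-149224221 had 23 and 28 counts in DMSO 12 h and 102 and 171 in 5-FU 12 h, and rose by 2.04 (SE 0.34, edgeR adjusted p = 6.48e-04). This copy held 99.2% of U1 in Nutlin replicate 2, so a move of counts and a change at the copy cannot be told apart. The U1 copy at chr1:148604907-148605072 had 66 and 40 against 139 and 138 and rose by 1.01 (SE 0.29, edgeR adjusted p = 0.0306). At 24 h these U1 copies were at 0.47 (edgeR adjusted p = 0.495) and -0.51 (edgeR adjusted p = 0.377), in the same order. The fourth U2 copy, on chromosome 18, had 9 and 9 counts against 52 and 53 and rose by 2.16 (SE 0.45, edgeR adjusted p = 0.00390), which came to 1.22 (adjusted p = 0.0139) against DMSO 6 h and 24 h. At 24 h 4 of the 64 were called, all higher, where 4.16% of copies were, and over the 3 times 11, all higher, where 14.3% were. The 4 were the first U4 copy, both copies of the U5 pair and the U2 copy on chromosome 10, which had 129 and 149 counts in DMSO 24 h and 237 and 1910 in 5-FU 24 h. That U2 copy was at 2.80 (edgeR adjusted p = 9.06e-04) and came to 1.13 (adjusted p = 0.0197) without 5-FU 24 h replicate 2. The 4 calls of 24 h came to 1 without either DMSO 24 h library, 2 without 5-FU 24 h replicate 1 and 8 without replicate 2. The 11 over the 3 times came to 6 without DMSO 6 h replicate 2, 7 without DMSO 12 h replicate 1 and 18 without 5-FU 24 h replicate 2. The share over all copies is not given for these counts with a library left out. At 6 h edgeR called 0 of the 64, where 0.104% of copies were. It put 5 of the 64 at an unadjusted p under 0.05, and 4720 of all 63602 copies. In the 24 h change minus the 6 h change it called 0, where 0.401% were. There 11 of the 64 had an unadjusted p under 0.05, and 5227 of all 63602 copies.

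U7 was the least counted of the 6 names, with 39 to 109 counts per library of the 5-FU table. Its leading copies, at chr17:5417529-5417589, chr15:90440808-90440869 and chr12:7052980-7053041, had 4 to 26, 5 to 22 and 3 to 17 counts. No U7 copy stood out: 4 different copies were the most counted in at least 1 library. Of its 4 copies tested, edgeR called 0 in each of the comparisons of the 5-FU table.

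After 6 h of Nutlin, U1 alone passed the test, with a small change. It had 7850 and 8518 CPM in DMSO and 9873 and 9753 with Nutlin, a change of 0.26 (SE 0.07, edgeR adjusted p = 0.00669, over 1028 names). U2 had 4523 and 4665 CPM against 5152 and 5371, a change of 0.20 (SE 0.07, edgeR adjusted p = 0.0554), and U4 353 and 386 against 413 and 446, a change of 0.21 (SE 0.08, edgeR adjusted p = 0.0818). Nutlin libraries lay above DMSO libraries for these 3 names and overlapped them, or lay within them, for the rest. The share of all names that separate in this way was not counted, so this describes the libraries alone. U5 was at -0.02 (approximate 95% interval -0.21 to 0.17), U6 at 0.13 (-0.09 to 0.34) and U7 at -0.10 (-0.61 to 0.42). So 1 of 6 names was called, where 12.7% of all names were. Without any 1 of the 4 libraries U1 was no longer called (0.20 to 0.32). With library size alone it was at 0.09 (edgeR adjusted p = 0.202), and calls over all names went from 99 higher and 32 lower to 43 higher and 188 lower.

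**Figure D5:**
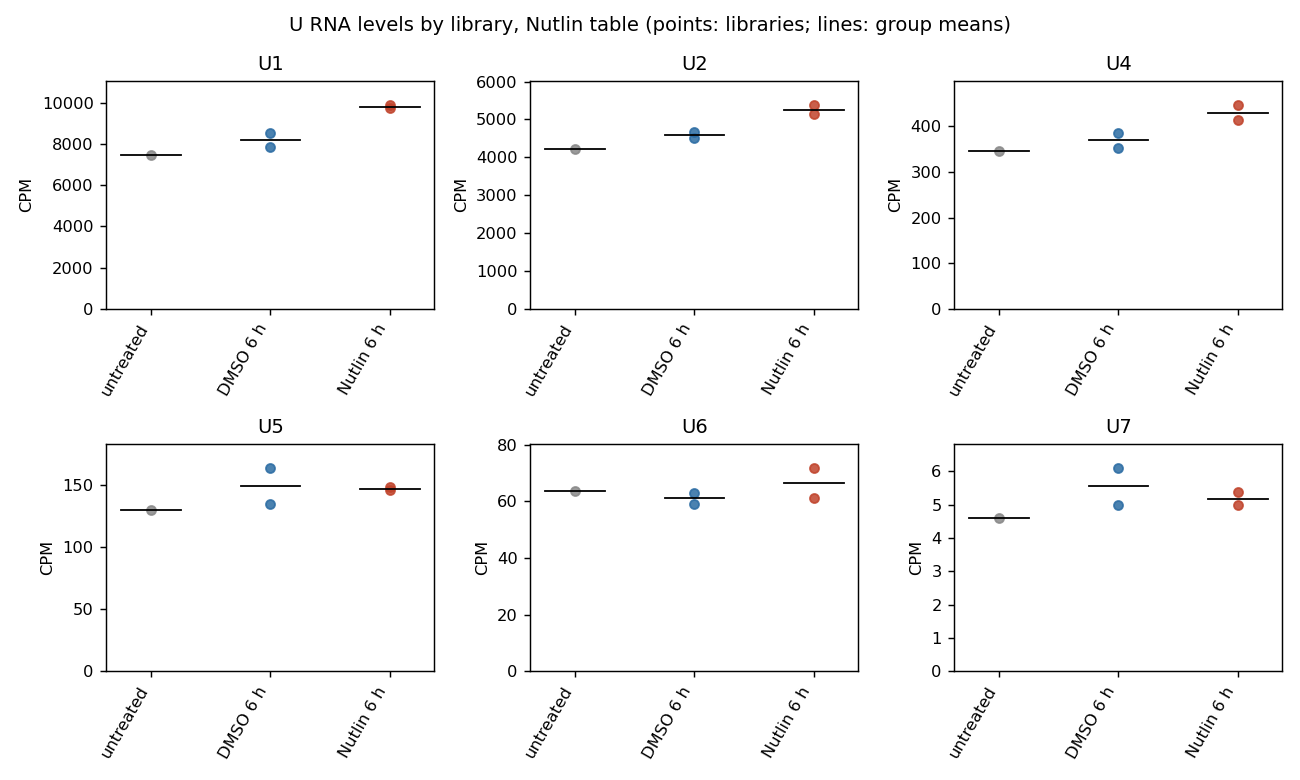
Level of each U RNA name, summed over copies, in the libraries of the Nutlin table, in CPM (linear axes from 0); points are libraries (grey untreated, 1 library, blue DMSO, red Nutlin) and lines are group means. Both Nutlin points lie above both DMSO points for U1, U2 and U4 (share over all names not counted).

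In the Nutlin data 37 of the 1113 copies were tested and 5 were called, 3 higher and 2 lower, where 9.57% of all copies were called. The highest was the U1 copy at chr1:149224058-149224221, with 55 and 42 counts in DMSO and 88 and 81603 with Nutlin, so the call rested on replicate 2. The U6 copy at chrX:3525299-3525406 had 26 and 29 counts against 90 and 48 and rose by 1.24 (SE 0.28, edgeR adjusted p = 0.0154). In the 5-FU table this copy rose by 0.88 over the 3 times (SE 0.23, edgeR adjusted p = 0.0124). The U5 copy at chr1:210547500-210547612 had 73 and 90 counts against 40 and 38 and fell by 1.10 (SE 0.24, edgeR adjusted p = 0.0137). The U2 copy at chr13:21186304-21186473 had 1 and 1 counts against 19 and 19, with 30 in the untreated library, and the U6 copy at chr14:32671251-32671356 had 38 and 16 against 1 and 0. For these last 2 copies a group was at 3 counts or fewer, and no fold is given. Both passed the filter on low counts only through the group where they were high, so these 2 calls are no support for a change.

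No U name passed the test for DMSO itself. Over its 3 times against untreated cells in the 5-FU table, U5 was at 0.54 (SE 0.17, edgeR adjusted p = 0.0543), U4 at 0.46 (SE 0.17, edgeR adjusted p = 0.0925) and U1 at -0.32 (SE 0.19, edgeR adjusted p = 0.310). U5 had 403 and 361 CPM in untreated cells and 482 to 734 in the 6 DMSO libraries, without overlap, and U4 925 and 1052 against 1028 to 1838, which overlapped. Of the 6 names edgeR called 0, where 11.8% of names were called. It put 2 of the 6 at an unadjusted p under 0.05, and 289 of all 1078 names. DESeq2 called 2 of the 6, and its share over all names is not given here. Of the 64 copies 3 were called, all higher, where 1.72% of copies were. They were both copies of the U5 pair (0.86, SE 0.20, adjusted p = 0.0319, and 1.08, SE 0.20, adjusted p = 0.00695, by edgeR) and the U2 copy on chromosome 10, whose DMSO counts were high at 12 h alone. For the next count the share over all copies is not given here. Without either untreated library 0 of the 64 were called.

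The 6 names were set beside 14 other small structural RNA names (U3, U8, U13, U14, U17, 7SK, 7SL, the Y RNAs, BC200 and 5S among them), with tRNAs and the large rRNAs left out. Over the 3 times 9 of 14 were called higher and 0 lower by edgeR, with a median of 0.48, beside a median of 0.61 for the 6 U RNAs and 0.11 for all names. The 14 changes lay between -0.07 and 2.33. The highest were BC200 at 2.33 (SE 0.09, edgeR adjusted p = 1.96e-09) and 7SK at 1.04 (SE 0.12, edgeR adjusted p = 3.46e-05), above each of the 6 U RNAs. U8, a nucleolar RNA of ribosome processing, was at 0.73 (SE 0.11, adjusted p = 2.45e-04) and U3, of the same pathway, at 0.20 (SE 0.09, adjusted p = 0.0950) by edgeR. Over the 14 libraries of the 5-FU table, log2 CPM of U4 and U5 had a Pearson r of 0.96, that of U2 and U5 0.92 and that of U2 and U4 0.91. U7 had an r of -0.09 to 0.28 with the other 5. Of 1072 names, tRNA-Val-GTY (r = 0.95), tRNA-Leu-TTA (0.95) and tRNA-Ile-ATT (0.92) were the most like U6, LTR9B (0.95), MER47C (0.93) and MER72 (0.92) the most like U2, and AluYd8 (0.92), MER106A (0.91) and MamGyp-int (0.89) the most like U1. These values are descriptions over 14 libraries that share groups, depth and scaling.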

How the data were processed

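Total RNA of 18 samples was sequenced with a stranded total RNA kit, per the labels' protocols. The authors deposited raw counts per repeat copy in 2 tables. Trimmomatic 0.32, cutadapt 1.10, Bowtie2, edgeR and DESeq2 and the build hg19 are named in the submitters' processing notes. The counting program, the repeat annotation and the handling of reads that fit several copies are not given in the sources used here. In the Nutlin table both columns of untreated cells hold equal values and count as 1 library, which entered scaling and fit but not the filter.

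Counts were summed by repeat name, or kept per copy. edgeR 4.0.16 (glmQLFit and glmQLFTest, R 4.3.3) was run on each whole table with TMM scaling (for names from all copies) after filterByExpr, 1 mean per group, and Benjamini-Hochberg adjustment over all 1078 or 1028 names, or 63602 or 21328 copies. A call is an adjusted p under 0.05. For the remainders the 6 names entered without their 3 most counted copies. Intervals are 1.96 SE, an approximation that is narrower than the edgeR test implies. For U2 at 6 h the interval was 0.01 to 0.54, while the unadjusted edgeR p was 0.0638. The exact permutation test, added after the data were seen, used numpy 2.4.6. Members, lists and tests were chosen with earlier results of these data known. Named copies are the 3 most counted of each name and table and up to 3 called ones per comparison and direction. Correlations used log2 CPM with 0.5 added.

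On simulated data with 200 changed features, 2-fold changes were recovered in 92% (names) and 2% (copies) of cases for 5-FU 12 h, and 84% and 25% for Nutlin. Gene sequences are GENCODE v29 transcripts taken by name. Those of U5 and U6 are not reported here. No annotation of hg19 was used, so copies were not placed in exons or introns. Alternatives were other scalings, filters, thresholds, DESeq2 1.42.0, other sets of libraries, a replicate block and each library left out.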

Additional observations from a re-analysis of the deposited data

How the results depend on the processing

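Single copies are the weak point: depth was low for most, and the simulated 2-fold changes were rarely recovered there. For the sums, scaling, the pooled spread and single libraries mattered, and the cause was not tested. Counts called under the alternatives are given below without the share over all names or copies. Names called for Nutlin (1) came to 2 with RLE size factors, TMM from the filtered features or DESeq2, 3 with TMM without structural RNA, and 0 with library size alone or without any 1 library. At 24 h (4 names) there were 2 with RLE or TMM from the filtered features, 0 in a fit of the compared groups alone, and 1 to 5 with a library left out. At 12 h (5 names) library size alone left 1, and over the 3 times (5 names) it left 3. At 6 h (0 names) the fit of the compared groups alone gave 1. For 24 h minus 6 h (0 names) DESeq2 gave 3, and a library left out 0 to 4. For DMSO against untreated (0 names) library size alone, DESeq2 and the compared groups alone gave 2 each, TMM without structural RNA and the sums without the most counted copy 1 each, and a library left out 0 to 1.

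Remainders called moved from 0 to 1 for Nutlin with library size alone, for 5-FU 6 h and for DMSO against untreated in fits of the compared groups alone, and for 24 h and 24 h minus 6 h with a library left out (0 to 1).

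Copies called for Nutlin (5) came to 2 at adjusted p under 0.01, 8 without a filter, 3 with at least 10 counts in every library or DESeq2, and 6 to 8 with a library left out. At 6 h (0) no filter gave 3. At 12 h (11) they came to 7 at adjusted p under 0.01, 20 against DMSO 6 h and 24 h, and 5 to 8 with a library left out. The value without DMSO 12 h replicate 1 was 5. At 24 h (4) they came to 2 at adjusted p under 0.01, 9 without a filter, 2 in the compared groups alone and 1 to 8 with a library left out. Over the 3 times (11) they came to 4 at adjusted p under 0.01, 7 with library size alone and 6 to 18 with a library left out. For 24 h minus 6 h (0) they came to 1 with library size alone, at least 10 counts or DESeq2, 5 without a filter and 0 to 3 with a library left out. For DMSO against untreated (3) they came to 6 with library size alone, DESeq2 or the compared groups alone, 10 without a filter and 0 to 4 with a library left out.

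Signs turned in these cases. Without the most counted copy, U1 was at -4.80 at 12 h and -1.40 over the 3 times. It was at -0.21 for 24 h minus 6 h and 1.79 for DMSO against untreated. U2 was at -4.76 at 12 h, -0.89 over the 3 times and -0.27 for Nutlin. Values at 12 h, over the 3 times and for DMSO include DMSO 12 h libraries, where counts had moved between copies. These do not enter 24 h minus 6 h. In the Nutlin table U2 kept 98.9% to 99.3% of its counts at 1 copy. With library size alone, U6 was at -0.05 for Nutlin, and U1, U4, U5 and U6 at -0.04, -0.02, -0.11 and -0.03 at 6 h. U7 was at -0.01, -0.14 and -0.11 with RLE size factors (12 h, 24 h and mean), at -0.39, -0.21 and -0.31 with library size alone, at -0.13 and -0.11 with TMM from the filtered features (24 h and mean), and at -0.27 at 12 h against DMSO 6 h and 24 h. The U2 copy on chromosome 10 turned from -6.29 to 1.54 there. With a library left out, U7 ranged from -0.23 to 0.05 for Nutlin, -0.48 to 0.10 at 6 h, -0.04 to 0.05 at 24 h, -0.10 to 0.10 over the 3 times, -0.09 to 0.49 for 24 h minus 6 h and -0.29 to 0.13 for DMSO against untreated. U5 ranged from -0.15 to 0.13 for Nutlin and -0.14 to 0.28 at 6 h, U4 from -0.04 to 0.35 at 6 h, and U1 from -0.15 to 0.55 at 6 h and -0.06 to 0.74 for 24 h minus 6 h.

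Deviations of same-numbered drug and DMSO samples had correlations of -0.07 for Nutlin and 0.02, 0.03 and 0.34 for 5-FU at 6, 12 and 24 h. Replicate numbers may thus pair the samples at 24 h. The replicate block was shared by all groups, so pairing at 24 h alone was not tested. With the replicate block 5 names were called at 12 h, 3 at 24 h (U6 adjusted p = 0.0524), 5 over the 3 times, 1 for Nutlin and 0 in the other comparisons, and 12 copies at 12 h and 4 for Nutlin.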
